A study of Mus musculus with 2 samples.

Results

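The genes described here are 10 microRNA (miRNA) genes at the proximal end of the imprinted Dlk1-Dio3 region of mouse chromosome 12: Mir770, Mir673, Mir493, Mir337, Mir540, Mir665, Mir431, Mir433, Mir127 and Mir434. They were chosen by name and position, not by level, and are 10 of the 1973 miRNA genes counted. The samples were 2 whole bladders, 1 per pup, of the mouse strain B6NCrl on postnatal day 0, from the same litter per the labels, with RNA of under 30 nucleotides sequenced. Both are untreated and form 1 group, so no condition is compared. They are called pup 2 and pup 1 after their replicate numbers. Per the labels, the pups' sex was not recorded, and a whole bladder mixes muscle, stroma, epithelium, vessels and nerves, so fewer cells of a type and less RNA per cell cannot be told apart.

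Sense-strand gene counts were 3636650 in pup 2 and 7460621 in pup 1. Levels are sense-strand counts per 1000000 sense-strand gene counts (CPM), and 1 count was worth 0.275 CPM in pup 2 and 0.134 CPM in pup 1. A count of 0 allows up to 0.825 CPM in pup 2, against 0.402 CPM in pup 1; this limit and all intervals below cover counting error only, since PCR reads without molecular identifiers are not independent molecules. The tissue label fits its markers: the smooth muscle genes Mir143 and Mir145a together had 535290.4 CPM in pup 2, against 538292 CPM in pup 1, and 6 of 6 epithelial genes were detected. The 5 measured genes of the neuronal miR-124 and miR-9 families were at 0 in both libraries; they exist in near-identical copies whose reads map to several places.

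Imprinted genes are expressed from the copy of a single parent. In the Dlk1-Dio3 region the maternal chromosome expresses the long non-coding RNA Meg3, then a transcript antisense to Rtl1, then Rian and Mirg, and miRNA hairpins are cut from these transcripts. The paternal chromosome expresses the protein genes Dlk1, Rtl1 and Dio3. Because the anti-Rtl1 hairpins are read from the strand opposite to Rtl1, their mature miRNAs pair with Rtl1 messenger RNA along their whole length, and in the mouse they are known to direct its cleavage. Rtl1 derives from a retrotransposon and is required in the mouse placenta. These miRNAs are best known from embryo, placenta, brain and muscle. Parental origin was not measured in these libraries.

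The 10 genes lie on the plus strand between positions 109563692 and 109594599 of chromosome 12 (GRCm38, GENCODE M21 annotation), a span of 30.9 kb. Mir770 is within Meg3: of the 4 annotated Meg3 transcripts that span it, 1 has it in an exon and 3 in an intron. Mir673, Mir493, Mir337, Mir540 and Mir665 overlap no other annotated gene, with small RNA genes left out of this search. Mir431, Mir433, Mir127 and Mir434 lie within 4.15 kb, each opposite the coding sequence of Rtl1, which is on the minus strand. Gene IDs of Mir337, Mir540 and Mir127 carry another version number in the count tables than in M21, so their counted ends may differ from those given here.

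The mature sequences below are RefSeq's (GRCm38.p6) and are shown because these 4 genes hold most of the counts and because their match to Rtl1 sets them apart. They are written 5′ to 3′, with the seed (bases 2 to 8, the part that pairs first with a target) in capitals.
miR-431-5p: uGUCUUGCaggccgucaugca
miR-431-3p: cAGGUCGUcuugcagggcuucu
miR-433-5p: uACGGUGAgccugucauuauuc
miR-433-3p: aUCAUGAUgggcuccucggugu
miR-127-5p: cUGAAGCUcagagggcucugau
miR-127-3p: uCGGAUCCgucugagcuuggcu
miR-434-5p: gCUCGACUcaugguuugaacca
miR-434-3p: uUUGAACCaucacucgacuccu

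All 8 of these mature sequences have a full-length complement in the coding sequence of the Rtl1 transcript. This follows from the position of their hairpins opposite that sequence and is no separate finding. None of the 12 mature sequences of the other 6 genes, which lie outside Rtl1, has one anywhere in the transcript. Of the sites, those of miR-127-3p and miR-431-5p are shown as DNA of the Rtl1 strand, 5′ to 3′, with the bases that face the seed in capitals.
Rtl1 site of miR-127-3p, chr12:109592888-109592909, minus strand: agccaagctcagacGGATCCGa
Rtl1 site of miR-431-5p, chr12:109590459-109590479, minus strand: tgcatgacggcctGCAAGACa

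The 20 mature sequences of the 10 genes hold 20 different seeds, so by seed they form no family. Only 2 of the seeds occur in another of the 1738 mouse mature miRNAs of the table. Each pair is shown with the gene described here first.
miR-673-5p: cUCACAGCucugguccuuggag
miR-6985-3p: cUCACAGCcaccuccucacag
miR-540-3p: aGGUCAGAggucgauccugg
miR-6915-5p: aGGUCAGAgcagauggagguucgu
Mir6985 had 2 counts in pup 2 and 3 counts in pup 1, at or under the limit of a count of 0, whereas Mir673 had 162 and 422 counts. No counted gene was matched to the symbol Mir6915, so it has no level here. Some hairpins repeat a stretch of their own: both arms of Mir431 contain gucuugcagg, and ugguuugaaccau occurs at 2 places in the Mir434 hairpin. Counts were made per hairpin, so the arm that a read came from is not known here.

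Levels come first for the genes antisense to Rtl1. All 10 genes were detected (at least 1 CPM and 3 counts in both libraries), against 17.0% of all 1973 genes. Together they had 8366 CPM in pup 2 and 9098 CPM in pup 1, a mean of 0.873% ± 0.052 (SD, n = 2) of all gene counts. The 4 anti-Rtl1 genes supplied 87.7% of that sum in pup 2 and 87.3% in pup 1. The annotated mature miRNAs are 19 to 26 bases long, so levels were compared between genes as CPM. The lengths of the reads themselves are not known from the counts. Per base of hairpin (67 to 124 bases), a scaling chosen after seeing the data, all 10 genes kept their places in the order.

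Mir127, whose product was reported in human bladder cancer cell lines as a miRNA that returns when silenced chromatin is opened by drugs, had 15093 counts in pup 2 and 32093 counts in pup 1. That was 4150.2 CPM (exact 95% interval 4084 to 4217) in pup 2 and 4302 CPM (4255 to 4349) in pup 1. It held 49.6% of the 10-gene sum in pup 2 and 47.3% in pup 1. The coefficient of variation between the pups was 2.53%, against 0.694% from counting.

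Mir431, known in mouse muscle as a repressor of the satellite cell factor Pax7, had 6913 counts in pup 2 and 16893 counts in pup 1, or 1901 CPM (1856 to 1946) and 2264 CPM (2230.3 to 2299). The intervals of the pups do not overlap. Its share of the sum was 22.7% in pup 2 and 24.9% in pup 1. Mir127 was thus 2.18-fold above Mir431 in pup 2 and 1.90-fold above it in pup 1, a ratio that no choice of library scaling can change.

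Mir434 had 3266 counts in pup 2 and 7437 counts in pup 1, or 898 CPM (867.6 to 929.4) and 997 CPM (974 to 1019.7). It was lower in pup 2, with intervals that do not overlap. Mir433, the lowest of the anti-Rtl1 genes described here, had 1416 and 2816 counts, which is 389 CPM in pup 2 against 377 CPM in pup 1. In CPM, the coefficient of variation of Mir433 between the pups was 2.20%, against 2.32% from counting. With TMM library sizes its level was 383 ± 12.9 and that of Mir127 was 4225 ± 57.6 (SD, n = 2), so which of them varied less between the pups depends on the scaling. Although its hairpin lies 1007 bases upstream of Mir127, Mir127 stood 11.03 ± 0.52-fold (SD, n = 2) above it.

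**Figure D1:**
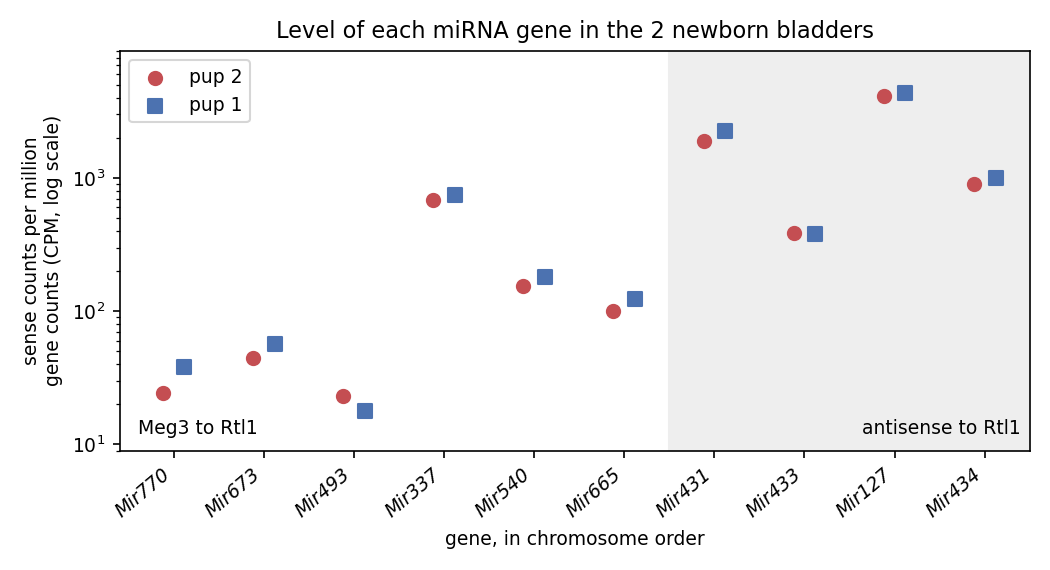
Level of the 10 genes in pup 2 (red circles) and pup 1 (blue squares), in CPM on a log axis, in their order along the chromosome; the grey field holds the genes antisense to Rtl1. Mir127 and Mir431 are the highest at 1901 CPM or more in each pup, and Mir770, Mir673 and Mir493 the lowest at 56.6 CPM or less.

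Outside Rtl1, from Mir770 to Mir665, the levels were below those of the anti-Rtl1 genes described here, except that Mir337 lay above Mir433. Mir337, the highest of these 6 genes, had 2475 counts in pup 2 and 5536 counts in pup 1, or 681 CPM (654 to 708) and 742 CPM (723 to 762). It stood 1.86 ± 0.15-fold above the anti-Rtl1 gene Mir433. Mir540 had 560 counts in pup 2 and 1344 counts in pup 1, or 154 CPM (141 to 167) and 180.1 CPM (171 to 190.04). Mir665 had 368 counts in pup 2 and 917 counts in pup 1, or 101 CPM (91.1 to 112) and 123 CPM (115 to 131). Both genes were lower in pup 2, with intervals of the pups that do not overlap. Mir337, Mir540 and Mir665 lie within 619 bases, yet Mir337 was 4.27 ± 0.21-fold above Mir540 and Mir540 1.49 ± 0.040-fold above Mir665. Their mature sequences are shown because such close neighbours differ in every seed; those of Mir337 lie opposite the annotated hairpin Mir3544.
miR-337-5p: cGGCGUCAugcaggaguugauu
miR-337-3p: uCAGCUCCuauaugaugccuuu
miR-540-5p: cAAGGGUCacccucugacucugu
miR-665-5p: aGGGGCCUcugccucuauccaggauu
miR-665-3p: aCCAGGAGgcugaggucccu
The other arm of Mir540, miR-540-3p, is printed above.

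Mir673, downstream of the last Meg3 exon, had 162 counts in pup 2 and 422 counts in pup 1, or 44.5 CPM (38.0 to 52.0) and 56.6 CPM (51.3 to 62.2). Mir770, inside Meg3, had 89 counts in pup 2 and 284 counts in pup 1, or 24.5 CPM (19.7 to 30.1) and 38.1 CPM (33.8 to 42.8). It varied most between the pups, with a coefficient of variation of 30.7% against 7.78% from counting. Mir493, whose product is described in human bladder cancer cells as a suppressor of migration, had 84 counts in pup 2 and 132 counts in pup 1, or 23.1 CPM (18.4 to 28.6) and 17.7 CPM (14.8 to 20.98). It was the lowest of the 10 genes in both pups.

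In order of mean level the genes were Mir127, Mir431, Mir434, Mir337, Mir433, Mir540, Mir665, Mir673, Mir770 and Mir493. In each neighbouring pair of this order both pups lay above both pups of the next gene, so no pair overlapped. The closest values were those of Mir770 and Mir493 in pup 2, where the ratio was 1.06 and the counting intervals overlap; in pup 1 it was 2.15. The order of Mir770 and Mir493 is thus not settled in pup 2. By mean CPM, Mir127 ranked 24, Mir431 42, Mir434 71, Mir337 79, Mir433 104, Mir540 134, Mir665 153, Mir673 184, Mir770 198 and Mir493 216 among all 1973 genes. Mir127 exceeded Mir493 179.7-fold in pup 2 and 243-fold in pup 1. The 4 highest genes held 91.2% of the sum in pup 2 and 91.3% in pup 1.

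Over the 10 genes, levels tended to increase with distance from the start of Meg3, with a Spearman rho of 0.81 and a Pearson r of 0.78 on log2 CPM. The genes share their libraries, so this is a description with no test. The increase was not steady: from Mir431 through Mir433 and Mir127 to Mir434 the mean levels were 2083, 383, 4226 and 947 CPM. Other miRNA rows in or next to this stretch are not among the 10 genes and are left out of these values. Mir3070a (46.9 kb, 1.97 CPM), Mir3070b (47.6 kb, 0.134 CPM) and Mir432 (54.0 kb, 0 CPM) lie toward the far end yet are low. A row annotated as Mir3071, at 54.3 kb, had 288 CPM. The increase is thus that of the 10 genes and not of every miRNA row there. For the GC content of the hairpin (45.7% to 70.2%) rho was -0.26, and for its folding energy per base, computed with RNAfold, it was 0.35. Folding energies are negative, so this positive rho means that higher levels went with less stable hairpins. The gene with the highest GC content, Mir770, was among the lowest in level, and the gene with the lowest, Mir434, came after Mir127 and Mir431.

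**Figure D2:**
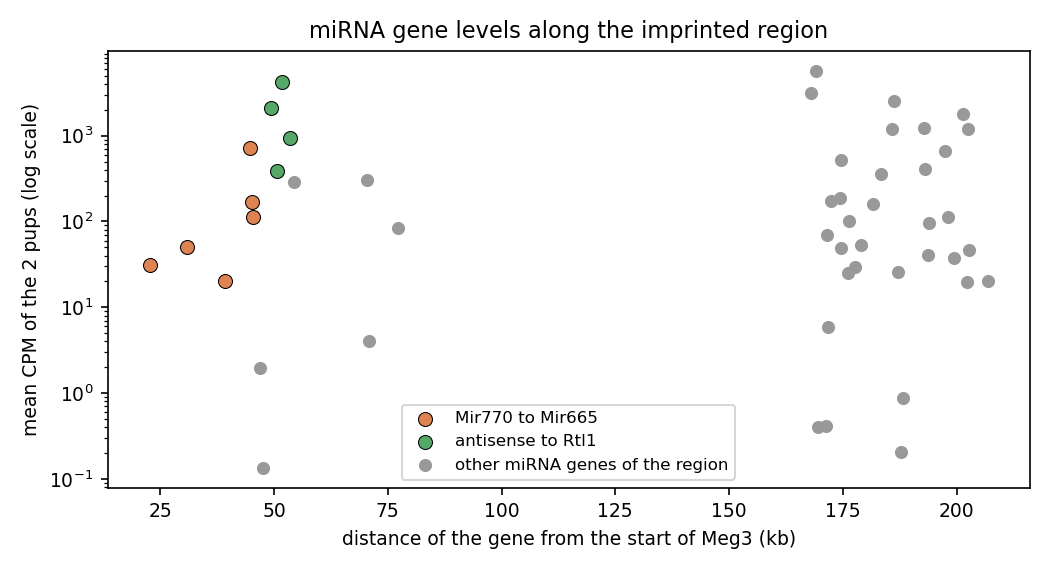
Mean CPM of the 2 pups on a log axis against the distance of each gene from the start of Meg3 in kb. Orange marks the 6 genes from Mir770 to Mir665, green the 4 genes antisense to Rtl1 and grey the other miRNA genes of the region. Not drawn are Mir1247, next to Dio3, and 9 genes at 0 sense counts, of which Gm25750, Gm25252 and Gm24321 had opposite-strand counts. The 4 green genes lie between 383 and 4226 CPM, in the same range as the upper genes of the distal group. Mir432, also opposite Rtl1 but not drawn in green, is among the genes at 0.

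The rest of the region served for comparison. Another 49 miRNA genes with rows in the tables lie between Dlk1 and Dio3, and 34 of them (69.4%) were detected. Their median level was 41.1 CPM, against 275 CPM for the 10 genes and 0 for all 1973 genes. The others include 9 genes at 0 in both libraries by sense counts, among them Gm25750, Gm25252 and Gm24321, whose counts fell on the opposite strand. They also include low genes of the proximal part, such as Mir3070a and Mir432, so these medians do not compare the proximal with the distal part. The 10 genes took 29.9% of the region's sense counts in pup 2 and 29.5% in pup 1. The highest of the others were Mir411, Mir379, Mir487b and Mir541, all in the distal part upstream of or within Mirg. Mir411, with 5508 CPM in pup 2 against 5954 CPM in pup 1, was above Mir127, and Mir541 had 1675 CPM and 1921 CPM. At 4 rows of the others (Mir299b, Gm25750, Gm25252 and Gm24321) nearly all counts fell on the opposite strand. They ranged from 533 CPM at Gm25750 in pup 2 to 1811 CPM at Gm25252 in pup 1, so these rows are not silent. Those counts are not in these sums, the median or the number detected. With them in the region's total, the share of the 10 genes would be below 29.9% and 29.5%.

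The last of the anti-Rtl1 hairpins, Mir136, has no row under its own gene ID. A row at its place, annotated in M21 as Mir3071 on the minus strand but under another version of the ID, had 1036 sense counts in pup 2 and 2168 in pup 1, or 285 CPM and 291 CPM. The strand this row had in the annotation used for counting is not given in the sources used here, so Mir136 and Mir3071 cannot be told apart. Mir432, also opposite Rtl1, had no count in either library. Between Mir665 and Mir431, Mir3070a had 9 counts in pup 2 and 11 in pup 1.

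The only comparison between samples that the design allows is between the littermates. It asks whether the 10 genes moved together between these 2 libraries. Of the 10 genes, 6 were lower in pup 2 and none was higher, at an adjusted p under 0.05. The test was a two-sided exact binomial test, run on each of the 362 genes with at least 10 summed counts, and its p-values were adjusted over all of them by Benjamini-Hochberg. By the same test 13.3% of all tested genes were lower in pup 2, 19.1% were higher, and 32.3% differed in either direction. The test sets 2 libraries against read counting noise, and its power grows with depth, so it says nothing of a condition. Library sizes were scaled by edgeR's TMM method. With total count scaling, 59 of all tested genes were higher in pup 2 and 64 lower, instead of 69 and 48, and for the 10 genes the counts were 0 and 8.

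The 6 genes were Mir770, Mir431, Mir665, Mir540, Mir434 and Mir337. Mir770 had the largest difference, with a log2 ratio (pup 2 over pup 1) of -0.61 (95% counting interval -0.97 to -0.27; adjusted p of the exact binomial test 0.00178). For Mir431 the log2 ratio was -0.23 (-0.27 to -0.19; adjusted exact binomial p = 5.81e-28); its depth makes its interval narrow. Mir665 had a log2 ratio of -0.26 (-0.44 to -0.08) and Mir540 of -0.20 (-0.35 to -0.06), with adjusted exact binomial p-values of 0.0140 and 0.0186. Mir434 had -0.13 (-0.19 to -0.07) and Mir337 -0.10 (-0.17 to -0.03), with adjusted exact binomial p-values of 0.000149 and 0.0140. Apart from Mir770, these genes had CPM ratios between 0.823 and 0.917.

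The remaining 4 genes did not pass. Mir673 had a log2 ratio of -0.32 (adjusted exact binomial p = 0.0518) and passed with total count scaling, with DESeq2 size factors, with a minimum of 50 counts and with both strands counted. Mir127 had -0.03 (adjusted exact binomial p = 0.127) and passed with total count scaling, with DESeq2 size factors and with both strands counted. Mir433 and Mir493 had positive log2 ratios of 0.07 and 0.41, and their adjusted exact binomial p-values were 0.291 and 0.127. The interval of Mir493 ran from -0.004 to 0.81.

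**Figure D3:**
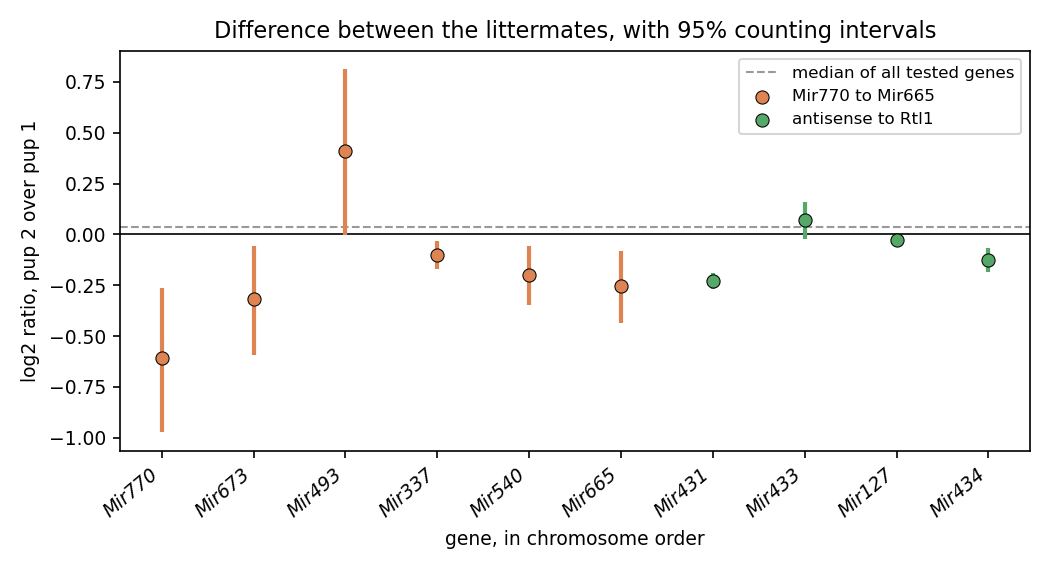
Log2 ratio of pup 2 over pup 1 for each gene in chromosome order, with 95% counting intervals; the solid line is no difference and the dashed line the median of all tested genes, 0.03. Points below the line are lower in pup 2; 8 of the 10 genes lie there, and Mir493 and Mir433 lie above.

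The median log2 ratio was -0.16 for the 10 genes, -0.10 for the other 36 tested genes of the region and 0.03 for all 362 tested genes. Of those 36 genes, 10 were lower in pup 2, among them Mir411 and Mir379, and none was higher. The summed counts of the 10 genes had a log2 ratio of -0.10 (95% counting interval -0.12 to -0.08), and those of the other genes of the region -0.12 (-0.14 to -0.11). Their intervals overlap. Within the 10 genes, the ratio of the summed counts was -0.09 for the anti-Rtl1 genes and -0.15 for the other 6.

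Between the pups the median absolute log2 ratio of all tested genes was 0.16, which Mir770, Mir493, Mir673, Mir665, Mir431 and Mir540 exceeded in size and the other 4 genes did not. For the spread between the libraries, edgeR's common dispersion corresponds to a biological coefficient of variation of 13.2%. When edgeR's exact test used that dispersion, none of the 10 genes passed after adjustment and 0 of 10 had an unadjusted p under 0.05, while 1.38% of all tested genes passed after adjustment. That dispersion comes from the same 2 libraries, so this describes them and is no test between animals. Marker levels of some other cell types were also unlike between the bladders, in both directions, and others were close. The 6 epithelial genes summed to 13178 CPM in pup 2, against 13437 CPM in pup 1. Mir126a, of endothelium, had 19646 CPM in pup 2, against 19915 CPM in pup 1. The blood genes Mir451a, Mir144, Mir223 and Mir150 (4 of 4 detected, none at 0) summed to 2229 CPM in pup 2, against 1071 CPM in pup 1. Mir122, of liver, had 31.6 CPM in pup 2, against 112 CPM in pup 1. The skeletal muscle list, with 1 of its 5 measured genes detected and Mir133a-2 at 0, summed to 8.25 CPM in pup 2, against 12.6 CPM in pup 1. Most of that sum was Mir206, with 6.87 CPM in pup 2 and 11.1 CPM in pup 1. Mir206 did not pass the exact binomial test (adjusted p = 0.108). Mir1a and Mir133a are listed as numbered copies, and reads that map to several places are in no gene's count. A low or 0 value of theirs is therefore no sign of absence. The part of these cell types in the differences of the 10 genes was not tested.

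**Figure D4:**
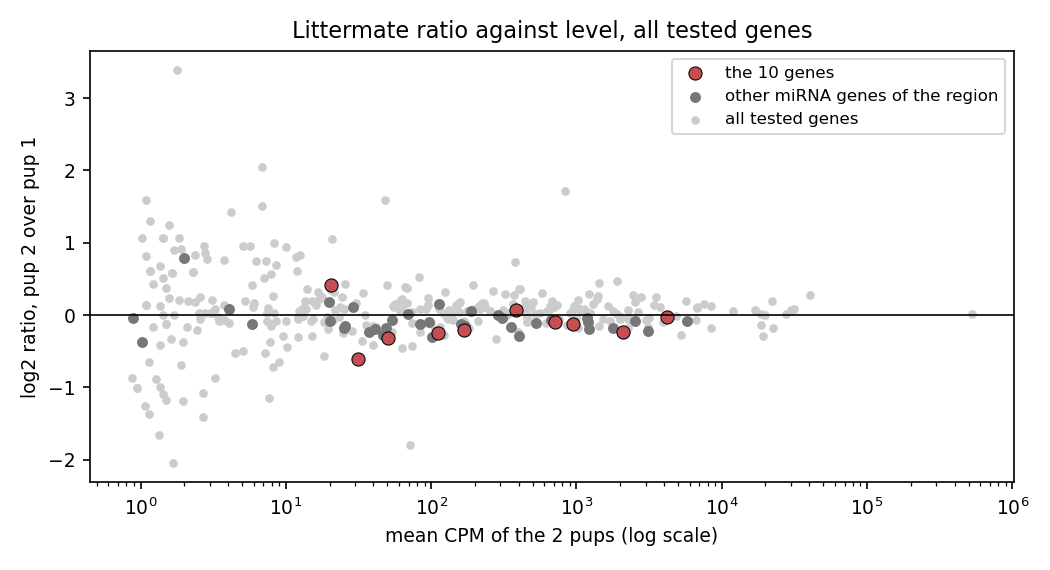
Log2 ratio of pup 2 over pup 1 against mean CPM (log axis) for the 362 tested genes (light grey), the other genes of the region (dark grey) and the 10 genes (red). The 10 genes lie between -0.61 and 0.41, and the spread of all genes widens at low CPM.

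Counts on the strand opposite to the hairpins were nearly absent. The 10 genes had 4 opposite-strand counts of 30430 in pup 2 and 10 of 67884 in pup 1, all at Mir337. Over all genes the opposite strand took 3.18% of gene counts in pup 2 and 3.17% in pup 1. That is a total and no background per gene, so it does not set the 10 genes apart. Gm25252, for instance, had 5896 opposite-strand counts in pup 2, 13510 in pup 1 and no sense count. No count fell on the Rtl1 strand at the 4 anti-Rtl1 hairpins in either library. With RNA limited to under 30 nucleotides, these libraries do not measure Rtl1 messenger RNA. None of the 10 hairpins shares a stretch of 20 bases with another mouse hairpin of the RefSeq table on the same strand, so near-identical miRNA copies were not found for them; reads that mapped to several places, 24.8% in pup 2 against 22.7% in pup 1, are in no gene's count.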

How the data were processed

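Small RNA from 2 newborn bladders was sequenced as 1 library per pup. The authors deposited whole-number counts per miRNA gene, as raw values for each pup. The labels and the deposited text name mm10 as the assembly and GENCODE M4 as the annotation; which aligner and counter were used is not given in the sources at hand. Columns are unnamed. In every gene, the values of the first count column were the sum of the other 2, of which the fuller was taken for the sense strand and the other for the opposite strand. The 4 lines of unassigned reads stayed out; unmapped, multiply mapped and unannotated reads were 7.32%, 24.8% and 3.07% of reads in pup 2 and 8.19%, 22.7% and 3.22% in pup 1.

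Symbols and positions came from GENCODE M21 by gene ID (1894 of 1973 matched), and sequences from RefSeq, where all 10 genes matched. CPM used sense-strand gene totals. The libraries were compared by a two-sided exact conditional binomial test over 362 genes with at least 10 summed counts. It used edgeR 4.0.16 TMM sizes computed on those genes (R 4.3.3), and log2 ratios used a prior count of 0.5. The script was tested on simulated data that held read counting noise alone, which does not show how its calls behave in these libraries. A quasi-likelihood fit needs replicates on each side and could not be fitted. Chi-square over its 361 degrees of freedom was 48.3, so the tables are not 1 library deposited under both names. The labels name 2 pups of the same litter, so p-values and SDs do not cover differences between litters. DESeq2 1.42.0 supplied size factors as an alternative. ViennaRNA 2.7.2 folded hairpins; Python 3.11.15, scipy 1.17.1, numpy 2.4.6, pandas 2.3.3 and matplotlib 3.10.9 did the rest. The genes, lists and alternatives were chosen with earlier results of these data known. Named genes are the 10 genes, the 4 highest others of the region, Mir136, genes that share a seed, and markers. Mir3070a, Mir3070b, Mir432, Mir1247 and 4 rows with opposite-strand counts were named after their values were seen. No genes of like pattern are named, since 2 libraries of 1 group give no pattern to match.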

Additional observations from a re-analysis of the deposited data

Results flagged for a closer look

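Mir337 had 4 counts in pup 2 and 10 counts in pup 1 on the strand opposite to its hairpin, above the 3 counts that a count of 0 allows, in a column that the levels do not use. In pup 2 they were 0.161% of its counts, with an exact 95% interval of 0.0440% to 0.413%, or 1.10 CPM. In pup 1 they were 0.180%, with an interval of 0.0865% to 0.331%, or 1.34 CPM. The RefSeq table places another hairpin, Mir3544, on that strand at the same place. The source of these counts was not tested.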

How the results depend on the processing

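With Mir143 left out of the totals, the 10-gene sum was 18379 CPM and the anti-Rtl1 sum 16079 CPM, since Mir143 holds over 52% of counts. Per 1000000 reads with unassigned reads included they were 5709 and 4994. With TMM sizes or both strands counted they moved by less than the SD, and the single pups gave 8366 to 9098 CPM for the 10-gene sum and 7339 to 7940.2 CPM for the anti-Rtl1 sum. All 10 genes were detected under every detection rule tried, also at 10 CPM. The number of the 10 genes that differed between the pups was 3 with no count filter, where 1973 genes enter the adjustment and 4.87% of them differed (Mir337, Mir540 and Mir665 no longer passed), and 0 with the dispersion in edgeR's exact test, where 1.38% of all tested genes did. It was 7 with at least 50 counts, where 43.3% of all tested genes differed, and 8 with total count scaling (34.0%), DESeq2 size factors (34.5%) and both strands (33.6%). For the other genes of the region it was 0 with the dispersion and 9 to 13 otherwise. For the summed counts, the log2 ratio was -0.12 with total count scaling and -0.13 with DESeq2 size factors. No gene's ratio changed sign under the scalings, filters and prior counts tried. Leaving out a pup leaves no ratio. No paired analysis was possible because there is 1 group. Depth limits Mir493 and Mir770 most, with 84 and 89 counts in pup 2.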
